A study of Rattus norvegicus with 20 samples.

Results

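Binding of NF-kB p65 to promoters was compared between livers of ethanol-fed and carbohydrate-fed rats 1 h after partial hepatectomy, in 3 ethanol and 3 carbohydrate arrays out of the 20 arrays of the study. The 6 arrays were taken by the diet, time and replicate number in their titles, and the arrays of equal number were compared as pairs, because each pair was hybridised on 1 slide by the array identifiers. All rats were wild-type male Sprague Dawley rats of 8 to 10 weeks, and all had the same operation, in which 70% of the liver was cut out. For 5 weeks before surgery, ethanol supplied 36% of the calories in the liquid diet of the ethanol group, and carbohydrate supplied them in the diet of equal calories of the carbohydrate group. Tissue of the remnant lobes gave the 1 h arrays, and the lobes removed at surgery served as 0 h samples. The labels call the arrays biological replicates, and the array identifiers give the 6 arrays different rats. A second text label says 0 h for every sample of the study, and the times were therefore read from the titles.

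NF-kB p65, encoded by Rela, is a transcription factor subunit held in the cytoplasm by inhibitor proteins of the IkB family. When cytokine or stress signals lead to the breakdown of the inhibitor, p65 enters the nucleus and binds promoters of inflammatory, survival and acute phase genes. One of its best known targets is Nfkbia, the gene of the inhibitor IkB-alpha itself, which closes a feedback loop. In liver, this pathway is known to act in the first hours after loss of tissue, in hepatocytes and in resident macrophages.

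Each array compared DNA precipitated with an antibody against p65 with a reference, over 713735 probes in 14723 tiled promoter regions. The channel labels name input DNA as the reference and the labelling text names DNA precipitated with normal IgG, and the sources used here leave unclear which was hybridised. Promoter signal is the mean log2 ratio in the 500 bp window of each region that was highest over all 20 arrays, after turning the sign of the deposited ratios and centring each array on its median. A signal of 0 is thus the median probe of the array, and a difference of 1 is a doubling of the ratio. The sign was turned because between 99.9% and 100% of the listed peaks of each array had deposited values below 0. There were 14540 promoters with such a window, of which 13293 had a gene name. The probe values of the 6 arrays correlated with each other at r between 0.23 and 0.70 over the 15 pairs of arrays. In every pair the carbohydrate array was at position 3 of its slide and the ethanol array at position 1 or 2, so diet and position cannot be told apart. By the identifiers, the rats of both arrays in pair 1 also gave 0 h arrays, and a 0 h rat of each diet gave a 6 h array.

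Sequences of 3 promoters are shown first, because they bear on which promoters carry the classical NF-kB motif. Each is the 250 bases before the start of the gene, 5′ to 3′, from RefSeq on build GRCr8. Capitals mark a match, on either strand, to GGG followed by any 2 bases and TTTCC. Here the classical motif means this spelling alone. Other spellings of NF-kB sites were not searched, apart from a looser motif given below. Rgs18, a regulator of G-protein signalling, was the only promoter past the test below whose measured window overlapped these bases. Ltb, the gene of lymphotoxin beta, is a textbook NF-kB target with a motif. The target genes Tnf, Il1a and Sele, whose windows also overlapped these bases, held no match, and their sequences are not shown. Nfkbia was added after its values were seen, as the promoter of the pathway with the largest difference.
Rgs18 (chr13:59066343-59066592, minus strand): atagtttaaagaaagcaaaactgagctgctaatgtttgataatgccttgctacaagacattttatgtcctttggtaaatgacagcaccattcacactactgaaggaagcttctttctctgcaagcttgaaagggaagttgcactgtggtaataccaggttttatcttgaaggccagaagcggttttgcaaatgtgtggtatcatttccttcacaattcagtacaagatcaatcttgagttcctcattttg
Ltb (chr20:3634055-3634304, minus strand): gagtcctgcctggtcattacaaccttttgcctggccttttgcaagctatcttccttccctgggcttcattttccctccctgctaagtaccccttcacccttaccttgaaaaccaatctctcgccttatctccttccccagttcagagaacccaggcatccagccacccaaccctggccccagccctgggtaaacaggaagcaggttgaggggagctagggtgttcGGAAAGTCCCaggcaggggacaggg
Nfkbia (chr6:78597073-78597322, minus strand): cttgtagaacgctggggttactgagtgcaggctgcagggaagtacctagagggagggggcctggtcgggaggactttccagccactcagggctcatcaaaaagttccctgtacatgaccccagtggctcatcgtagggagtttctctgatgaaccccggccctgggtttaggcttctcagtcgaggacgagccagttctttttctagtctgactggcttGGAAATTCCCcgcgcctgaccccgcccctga

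The motif of Ltb, GGAAAGTCCC, lay 25 to 16 bases before the start, and that of Nfkbia, GGAAATTCCC, 31 to 22 bases before it. Both matched on the reverse strand. Relative to the start, the measured window of Ltb ran from −578 to −78 and that of Nfkbia from −1647 to −1197, so neither window covered its motif. The classical motif was found in 435 of 33469 promoters of the same length, or 1.30%. A looser motif, GG followed by any 3 bases and TTTCC, which contains the first, was found in 1516, or 4.53%. Of the named promoters past the test below, 8 of 10 could be matched to a sequence and none of these 8 held either motif. Of the NF-kB target genes measured, 28 had a sequence and 8 of these held the classical motif, namely Cxcl1, Cxcl2, Ccl20, Il6, Il1rn, Ltb, Tapbp and Pdgfb. Of the NF-kB family and inhibitor genes, 16 had a sequence and 3 held it, namely Nfkbia, Nfkbiz and Nfkb2.

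Ethanol arrays had more listed peaks than carbohydrate arrays in each pair. The carbohydrate arrays had 4881, 5358 and 6052 peaks in pairs 1, 2 and 3, and the ethanol arrays 5916, 8435 and 9387. The ratio of ethanol to carbohydrate was 1.21, 1.57 and 1.55. Among peaks with a listed false discovery rate of at most 0.05 it was 1.44, 2.04 and 1.96. Over all listed peaks the groups overlapped, as the ethanol array of pair 1 had fewer than the carbohydrate array of pair 3. At a false discovery rate of at most 0.05 they did not, with 1754, 2028 and 2474 peaks in carbohydrate and 2524, 4136 and 4839 in ethanol. The exact sign-flip permutation test of the 3 paired differences gave a two-sided p of 0.25, which is the smallest that 3 pairs allow. The caller, which the sources used here do not give, listed peaks for each array separately and up to a false discovery rate of 0.19961.

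Genes with a peak on the carbohydrate array often had one on its ethanol partner. In pair 1, 4130 genes had a peak on the carbohydrate array and 5037 on the ethanol array, and 2738 were shared. In pair 2 the numbers were 4489, 6381 and 2992, and in pair 3 4900, 6698 and 3202. The shared genes made up 66.3%, 66.7% and 65.3% of the carbohydrate genes, and 54.4%, 46.9% and 47.8% of the ethanol genes. Of the 14356 genes in the peak lists of the 20 arrays, 35.1%, 44.4% and 46.7% had a peak on the ethanol array. By position, 54.8%, 49.4% and 47.2% of carbohydrate peaks overlapped an ethanol peak of the pair by at least 1 bp. A peak on all 6 arrays was listed for 820 genes, which is 5.71% of these genes. A peak on all 3 ethanol arrays and on no carbohydrate array was listed for 272 genes (1.89%), and the reverse for 56 genes (0.39%).

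**Figure D1:**
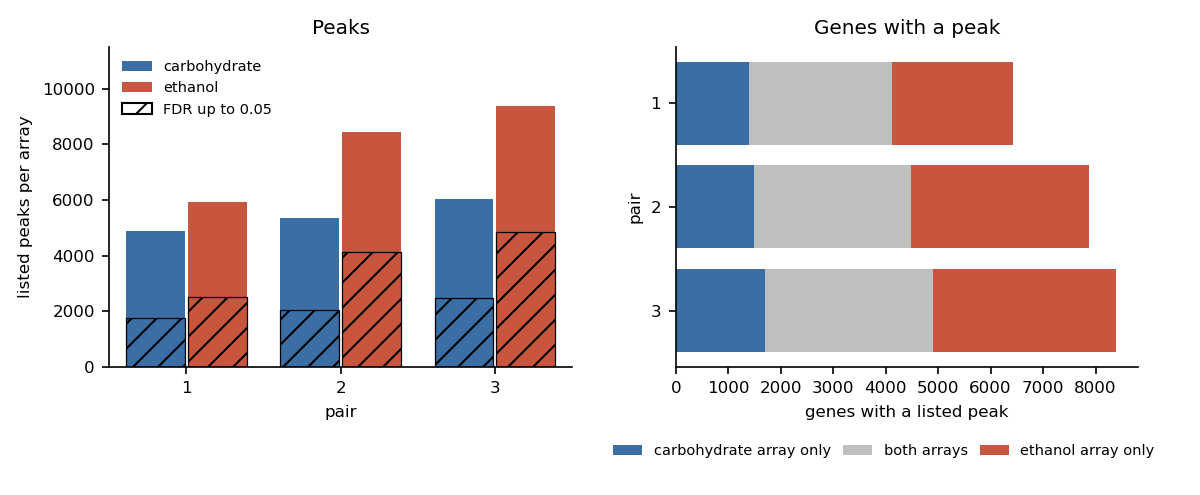
Left: number of listed peaks on each array by pair, with carbohydrate in blue, ethanol in red and the part with a false discovery rate of at most 0.05 hatched. Right: genes with a listed peak on the carbohydrate array only, on both arrays and on the ethanol array only of each pair. Every pair has more ethanol than carbohydrate peaks, from 1.21 times in pair 1 to 1.57 times in pair 2.

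Genes with the highest signal among those with a peak on all 6 arrays included immediate early, stress and hepatocyte genes, and others. Errfi1, a feedback inhibitor of EGF receptor signalling, had a promoter signal of 1.79 ± 0.43 (SD, n = 3) in carbohydrate and 1.82 ± 0.45 (SD, n = 3) in ethanol. Egr1, an immediate early transcription factor, had 1.53 ± 0.19 and 1.63 ± 0.52. The promoter shared by the metallothionein genes Mt1 and Mt2A, which bind zinc and other metals, had 1.30 ± 0.56 and 1.31 ± 0.57. Within the pairs, the metallothionein difference was −0.0305, −0.0047 and 0.0697. Igfbp1, an insulin-like growth factor binding protein that rises early in regeneration, had 1.36 ± 0.44 in carbohydrate and 1.28 ± 0.14 in ethanol. The other members of this group were Zfp36l1, Insig1, Atf4, Crp and the promoters shared by Esrp2 with Pla2g15 and by Dapk3 with Pias4 and Eef2. Crp, the gene of C-reactive protein, was lower in ethanol in all 3 pairs, by −0.14, −0.45 and −0.35, and did not pass the test. Atf4, a transcription factor of the amino acid and stress response, was higher in all 3 pairs, by 0.49, 0.36 and 0.61, and did not pass either. None of these 10 promoters passed the paired test, in which the smallest adjusted p among them was 0.422.

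Over all promoters the pairs differed in direction. The median difference, ethanol minus carbohydrate, was −0.02 in pair 1, −0.06 in pair 2 and 0.19 in pair 3, and 46.3%, 39.8% and 75.8% of promoters were higher in ethanol. Across promoters, which are not independent replicates, the differences of pairs 2 and 3 correlated at r = 0.35, those of pairs 1 and 3 at 0.15 and those of pairs 1 and 2 at 0.03. A difference of the same direction in all 3 pairs was found at 2429 promoters that were higher in ethanol (16.7%) and at 1595 that were lower (11.0%). A difference of over 0.3 in every pair was found at 87 higher (0.598%) and 23 lower promoters (0.158%). Without pair 3 the balance turned, with 2767 promoters higher and 4785 lower in both other pairs, and 119 and 254 by over 0.3. So the excess of higher promoters was not seen in this setting without pair 3. Centring each array on the median of its promoter windows set the median difference of pair 3 to 0.01. The counts over all 3 pairs were then 2754 higher and 2171 lower, and 110 and 35 by over 0.3. Averaging each whole tiled region instead put the median difference of pair 3 at −0.0009. There, 3756 promoters were higher in all 3 pairs and 1974 were lower. Every ethanol array lay above every carbohydrate array at 851 promoters (5.85%) and below at 428 (2.94%).

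The paired test, limma with the pair as a block and Benjamini-Hochberg adjustment over 14540 promoters, called 10 promoters higher in ethanol (0.0688%) and 1 lower (0.00688%) at an adjusted p under 0.05. Without adjustment, 869 promoters (5.98%) were higher and 261 (1.8%) lower at p under 0.05. The standard errors of this test came from the trend of the spread with signal over all promoters, and not from the spread of the 3 pairs at 1 promoter. A promoter with uneven pairs was therefore judged with the same error as one with even pairs. With 3 pairs, a promoter that did not pass is not thereby shown to be alike in both diets. When the pairs were ignored no promoter was called, with 703 at an unadjusted p under 0.05. Leaving out pair 1, 2 or 3 gave 2, 2 and 0 calls, and none of these was among the 11.

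The called promoters higher in ethanol were those of Ahr, Smim13, Slc1a1, Wdfy2, Otud6b, Fam234b, Rgs18, S100vp, Vom2r30 and a region without a gene name. Positions below are those of the array's own numbering, for which the sources used here do not give a build. At all 10 the mean of the carbohydrate arrays lay below 0, the median probe of the array, down to −0.52 at S100vp.

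Ahr encodes the aryl hydrocarbon receptor, a ligand-activated transcription factor that switches on enzymes of xenobiotic metabolism. Its window (chromosome 6, 54239303 to 54239799) was centred 717 bp downstream of the start. Its carbohydrate signals were 0.11, −0.09 and −0.23, and its ethanol signals 0.39, 0.55 and 0.83. All ethanol arrays lay above all carbohydrate arrays, and the pairs differed by 0.28, 0.64 and 1.06. The paired difference was 0.66 ± 0.16 (SE, n = 3 pairs; limma adjusted p = 0.0465). A peak was listed for Ahr on 3 ethanol arrays and on 1 carbohydrate array, more ethanol arrays than at any other called promoter.

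Slc1a1 encodes a transporter that takes up glutamate. Its window (chromosome 1, 232469013 to 232469391) was centred at −543 bp from the start. The carbohydrate signals were −0.06, −0.21 and 0.14, and the ethanol signals 0.94, 0.45 and 0.45. The groups did not overlap, and the difference was 0.66 ± 0.16 (SE; limma adjusted p = 0.0465), with the largest step, 1.01, in pair 1. Smim13, a small membrane protein gene, had carbohydrate signals of 0.07, 0.03 and −0.21 and ethanol signals of 0.31, 0.67 and 0.93 in a window centred at −1738 bp from the start (chromosome 17, 29446878 to 29447293). Its difference was 0.67 ± 0.16 (SE; limma adjusted p = 0.0465).

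Otud6b encodes an enzyme of the family that removes ubiquitin from proteins. Its window (chromosome 5, 29282319 to 29282815) lay 814 bp downstream of the start. Its carbohydrate signals were nearly equal at −0.22, −0.19 and −0.19, and its ethanol signals were 0.73, 0.16 and 0.46. The difference was 0.65 ± 0.14 (SE; limma adjusted p = 0.027). Fam234b (chromosome 4, 172150455 to 172150750) had carbohydrate signals of −0.10, −0.20 and −0.13 and ethanol signals of 0.19, 0.41 and 0.90, a difference of 0.64 ± 0.15 (SE; limma adjusted p = 0.0347). At both genes every ethanol array lay above every carbohydrate array.

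S100vp, named as a member of the S100 family of calcium-binding proteins, had the smallest adjusted p and the most even pairs. Its window (chromosome 2, 183740243 to 183740643) was centred at −3055 bp from the start. The carbohydrate signals were −0.56, −0.56 and −0.46 and the ethanol signals 0.01, −0.03 and 0.22, so the ethanol arrays reached about the level of the median probe. The difference was 0.59 ± 0.12 (SE; limma adjusted p = 0.00498), and no array of either diet had a listed peak there.

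Wdfy2, a protein of endosome membranes, differed by 0.26, 0.45 and 1.12 in the pairs, and Rgs18 by 0.03, 0.64 and 0.98. The Wdfy2 signals (chromosome 15, 42095033 to 42095433) were −0.50, −0.30 and −0.39 in carbohydrate and −0.24, 0.15 and 0.73 in ethanol (0.61 ± 0.12, SE; limma adjusted p = 0.00719). Those of Rgs18 (chromosome 13, 58629366 to 58629856) were −0.42, −0.22 and −0.43 in carbohydrate and −0.39, 0.42 and 0.55 in ethanol (0.55 ± 0.13, SE; limma adjusted p = 0.0347). The ethanol array of pair 1 was within the carbohydrate range at Rgs18, so its groups overlapped, and the call rests on pairs 2 and 3. Vom2r30, a vomeronasal receptor gene, showed the reverse: its ethanol signals (chromosome 1, 70450910 to 70451290) were 0.90, −0.11 and −0.01 against −0.07, −0.39 and −0.44, with the largest step in pair 1. Its groups overlapped too, and its difference was 0.56 ± 0.13 (SE; limma adjusted p = 0.0347). The unnamed region (chromosome X, 136235469 to 136235884) had even ethanol signals of 0.31, 0.25 and 0.27 against −0.04, −0.36 and −0.41 (0.54 ± 0.13, SE; limma adjusted p = 0.0465).

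Semg1, a gene of a secreted protein of the seminal vesicle, was the only promoter called lower in ethanol. Its window (chromosome 3, 155181262 to 155181667) lay 666 bp downstream of the start. The carbohydrate signals were 0.88, 0.64 and 0.54 and the ethanol signals 0.32, −0.31 and −0.03, without overlap. The difference was −0.69 ± 0.17 (SE, n = 3 pairs; limma adjusted p = 0.0465). A peak was listed on all 3 carbohydrate arrays and on 1 ethanol array.

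**Figure D2:**
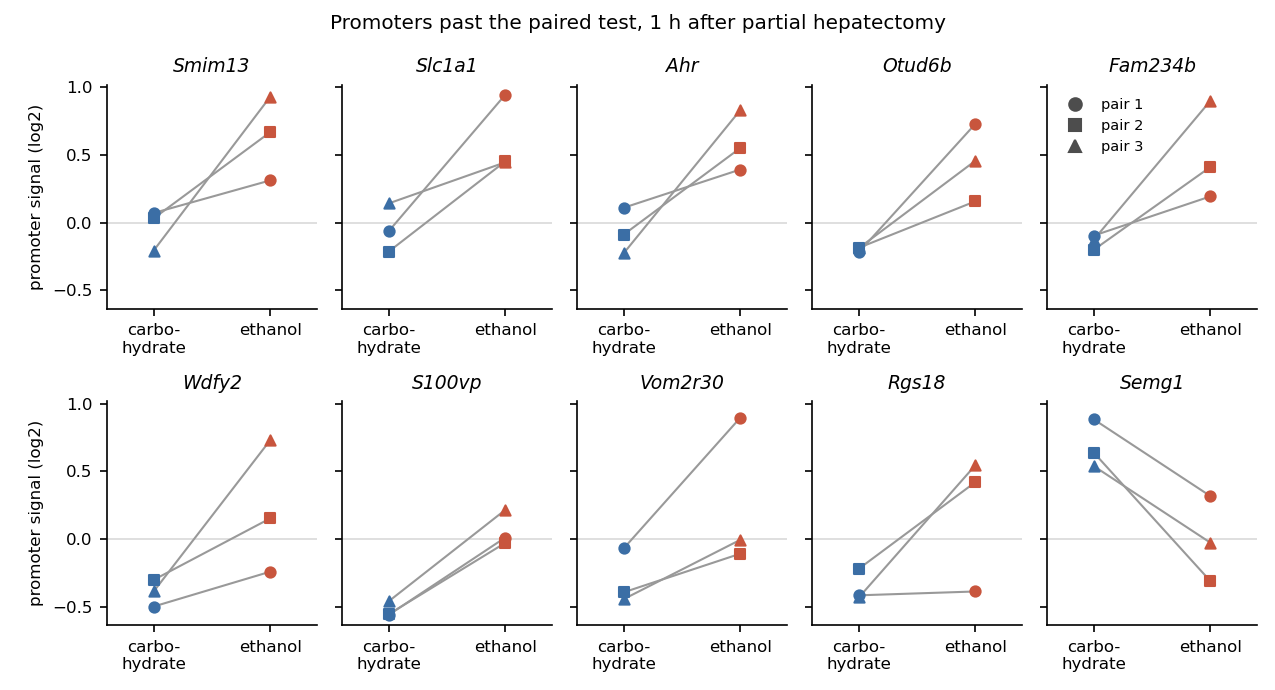
Promoter signal (log2, sign turned and median-centred) of the 10 named promoters past the paired test; blue points are carbohydrate arrays, red points ethanol arrays, and lines join the arrays of 1 pair. Ethanol arrays lie above their partners in all promoters but Semg1, and Rgs18 shows a step of 0.03 in pair 1 against 0.98 in pair 3.

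Just outside the threshold was Nsun7, of a family of RNA methyltransferases, with differences of 0.14, 0.31 and 1.16 (limma adjusted p = 0.0599). The lower promoters of smallest p did not pass. Dlgap4, a scaffold protein gene, differed by −0.54, −0.75 and −0.34, Tnfrsf14, a receptor of the TNF receptor family, by −0.69, −0.66 and −0.30, and Btnl7, of the butyrophilin-like family, by −0.45, −0.67 and −0.31. Each of these 3 genes had a listed peak on all 3 carbohydrate arrays and on no ethanol array. Krtap5-8, a keratin-associated protein gene with the same distribution of peaks, differed by −0.37, −0.53 and −0.55. The others were Cst12, Ephx1, Apba2, Smpdl3a and Or3a1f, with mean differences between −0.51 and −0.42. The limma adjusted p of these 9 promoters lay between 0.157 and 0.324.

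The diet difference of the called promoters was set against that at 0 h (3 arrays a diet) and at 6 h (4 arrays a diet). At 6 h it had the opposite sign at 9 of the 10 named called promoters, all but Slc1a1, and at 0 h at 8, all but Fam234b and Smim13. Whole arrays differed too. The median signal over all promoters at 6 h was 0.23, 0.30, 0.31 and 0.36 in carbohydrate and 0.18, 0.13, 0.22 and 0.23 in ethanol. At 0 h it was 0.12, 0.08 and 0.25 in carbohydrate and 0.18, 0.16 and 0.16 in ethanol. The share of all promoters with an opposite sign was not counted, so these counts are not shown to be particular to the called promoters. The promoters were chosen at 1 h, so their smaller differences at the other times are a description. At S100vp the carbohydrate mean was 0.24 ± 0.37 (SD, n = 3) at 0 h, −0.52 ± 0.06 (SD, n = 3) at 1 h and 0.53 ± 0.11 (SD, n = 4) at 6 h. The ethanol means were 0.24 ± 0.32, 0.07 ± 0.13 and 0.19 ± 0.36, so the groups stood apart at 1 h through the low carbohydrate arrays. At Ahr the carbohydrate mean was 0.69 ± 0.17 at 0 h, −0.07 ± 0.17 at 1 h and 0.17 ± 0.12 at 6 h, and the ethanol mean 0.65 ± 0.28, 0.59 ± 0.22 and 0.07 ± 0.14.

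The differences between times did not pass the test that used all 20 arrays without slides. This fit treats the arrays as independent, although 4 rats gave an array at both 0 h and a later time. In that limma fit, none of the 14540 promoters (0.0%) had a diet difference at 1 h that differed from that at 6 h at an adjusted p under 0.05, with 2044 at an unadjusted p under 0.05 and a smallest adjusted p of 0.192. None (0.0%) differed between 1 h and 0 h, with 1371 at an unadjusted p under 0.05 and a smallest adjusted p of 0.086. Pairs 2 and 3 shared their slides with 6 h arrays, and when the slide was a term of the fit, 22 promoters had a diet difference at 1 h other than at 6 h. This fit left 5 residual degrees of freedom. Of the 22, 5 were among the named called promoters. Their place there is no separate support, as the comparison contains the 1 h difference by which they were called. The change of the diet difference was 1.24 ± 0.18 at S100vp (SE; limma adjusted p = 0.000287), 0.93 ± 0.17 at Otud6b (0.0169), 1.10 ± 0.21 at Wdfy2 (0.0182), −0.98 ± 0.19 at Semg1 (0.0182) and 0.80 ± 0.17 at Slc1a1 (0.0352). Nfkbia was among the 22 as well, with 1.06 ± 0.23 (limma adjusted p = 0.0394). Nfkbia too was singled out by its 1 h difference, which this comparison contains, so its place there is no separate support either. For 0 h no such fit could be made, as the slides left that difference undetermined.

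**Figure D3:**
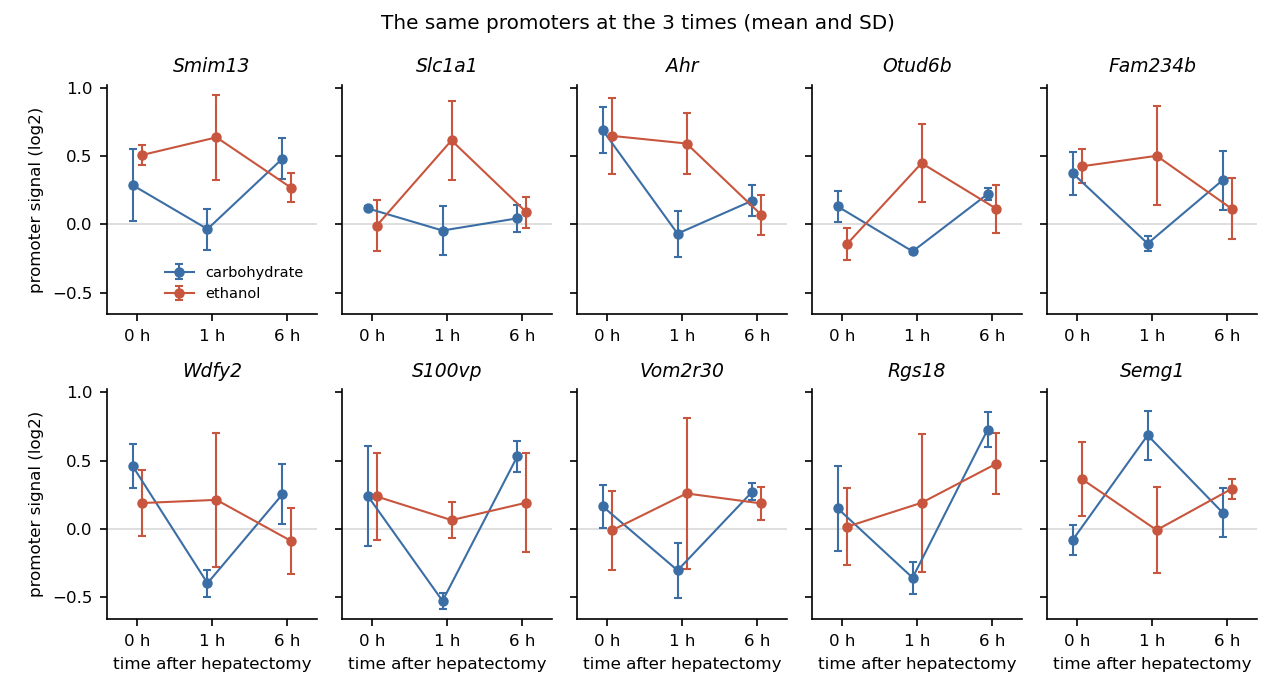
Mean promoter signal (log2) with SD of the 10 named called promoters at 0 h (n = 3), 1 h (n = 3) and 6 h (n = 4) after hepatectomy, with carbohydrate in blue and ethanol in red. The promoters were chosen for their difference at 1 h, where S100vp has −0.52 in carbohydrate against 0.07 in ethanol; single arrays of the diets overlap at Rgs18 and Vom2r30.

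Gene lists were described by how many of their promoters had the same direction in all 3 pairs, beside 16.7% higher and 11.0% lower over all promoters. Of the 20 promoters of the NF-kB family, its inhibitors and upstream signalling proteins, 6 were higher and 2 lower in all 3 pairs, and none passed the test. With the mean of the whole tiled region in place of the best window, 11 of the 20 were higher and 1 lower, beside 25.8% and 13.6% over all promoters. The direction of the median of this and the following lists was that of the main setting when arrays were scaled, quantile-normalised or centred otherwise, except for the small medians of NF-kB targets, testis and neuronal genes and Kupffer cell markers. With the sign of the ratios as deposited and the windows chosen anew, it was turned for all of them but the marker lists of Kupffer, endothelial and cholangiocyte cells. The median difference of the list was 0.14, against 0.03 over all promoters, and its medians in the pairs were −0.05, 0.0014 and 0.35. A peak on at least 2 arrays was listed in ethanol for 11 of 19 genes (57.9%) and in carbohydrate for 4 (21.1%). Over all genes these shares were 41.6% and 28.8%.

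Nfkbia had the largest difference of this list, with an adjusted p just above the threshold. Its carbohydrate mean was 0.02 ± 0.23 (SD, n = 3) and its ethanol mean 0.66 ± 0.54 (SD, n = 3). The pairs differed by 0.28, 0.56 and 1.08, so the step was largest in pair 3, the pair in which most promoters were higher. The paired difference was 0.64 ± 0.17 (SE; limma adjusted p = 0.0694), with a listed peak on 2 ethanol arrays and on no carbohydrate array. Under 7 of 17 alternatives its adjusted p was under 0.05, with a range from 0.00854 to 1.0 over all 17, and the difference stayed above 0 in 16 of them, all but the deposited sign. Nfkbiz, an atypical nuclear IkB protein, differed by 0.14, 0.47 and 0.31. Ripk1, a kinase that passes on signals of the TNF receptor, differed by 0.21, 0.25 and 0.74, and Ikbkb, the catalytic kinase that marks IkB for breakdown, by 0.23, 0.14 and 0.39. Irak1, a kinase of the interleukin-1 and Toll-like receptor pathway, differed by 0.09, 0.32 and 0.42 and was the gene of this list with a peak on all ethanol arrays and no carbohydrate array. Lower in all 3 pairs were Irak4, by −0.45, −0.15 and −0.14, and the promoter of Acaa1a, Acaa1b and Myd88, by −0.08, −0.14 and −0.11. Rela itself did not share a direction, with −0.15, −0.43 and 0.38.

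NF-kB target promoters were divided between both directions. Of their 39 promoters, 4 were higher (10.3%) and 5 lower (12.8%) in all 3 pairs, close to the shares over all promoters. With the mean of the tiled region, 15 were higher and 5 lower, beside 25.8% and 13.6% over all promoters. No target passed the test, in which the smallest adjusted p was 0.545. The median difference was 0.02, with −0.01, −0.10 and 0.26 in the pairs. Peaks on at least 2 arrays were listed for 23 of 41 target genes in ethanol (56.1%) and 14 in carbohydrate (34.1%). Lower in ethanol in all pairs was Nos2, the inducible nitric oxide synthase, by −0.34, −0.30 and −0.48. So was the tiled region of Lta and Tnf, which encode the cytokines lymphotoxin alpha and TNF, by −0.17, −0.30 and −0.48. Its window ran from −366 to 70 relative to the Tnf start. Listed peaks were counted on 3 carbohydrate arrays and 1 ethanol array, in each diet for whichever of Lta and Tnf had more. Ltb, whose sequence with its motif is given above, differed by −0.15, −0.07 and −0.20. Higher in all pairs were Xiap, an inhibitor of caspases, by 0.28, 0.19 and 0.47, and Il1rn, the antagonist of the interleukin-1 receptor, by 0.40, 0.17 and 0.34. Cxcl1, a neutrophil chemokine that holds the motif, had its difference in pairs 2 and 3, with −0.07, 0.22 and 1.00. Of the targets, Myc and Saa4 had peaks on all ethanol arrays and no carbohydrate array, but their signals did not share a direction, with 0.13, −0.12 and 0.63 at Myc and 0.42, −0.28 and 0.04 at Saa4.

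Among immediate early genes, which are switched on within minutes of a stimulus, 10 of 35 promoters were higher and 3 lower in all 3 pairs, and none passed. With the mean of the tiled region, 19 were higher and 1 lower, beside 25.8% and 13.6% over all promoters. Hes1, a target of Notch signalling, differed by 0.50, 0.78 and 0.65, with means of 0.61 ± 0.67 (SD, n = 3) in carbohydrate and 1.26 ± 0.81 in ethanol. Btg1, an antiproliferative gene, differed by 0.33, 0.91 and 0.64 (limma adjusted p = 0.162). Id2, an inhibitor of helix-loop-helix factors, differed by 0.25, 0.63 and 0.68, and Dusp6, a phosphatase that shuts off ERK, by 0.29, 0.33 and 0.66. Peaks on at least 2 arrays were listed for 82.9% of these genes in ethanol and 68.6% in carbohydrate.

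Acute phase and plasma protein genes, made mainly by hepatocytes, had 13 of 31 promoters higher and 2 lower in all 3 pairs, and none passed the test. With the mean of the tiled region, 16 were higher and 1 lower, beside 25.8% and 13.6% over all promoters. Cp, the copper carrier ceruloplasmin, differed by 0.45, 0.28 and 0.63, and Plg, plasminogen, by 0.10, 0.59 and 0.69 with a peak on all ethanol arrays and no carbohydrate array. The promoter of Itih1 and Nek4 differed by 0.19, 0.50 and 0.71, and that of Fgb and Plrg1 by 0.31, 0.36 and 0.62. The median of the list was 0.18, and its medians of 0.15, 0.03 and 0.24 were above 0 in every pair. So were those of other lists, among them ribosome and translation genes, with 0.12, 0.01 and 0.27. With the mean profile by distance from the start removed from each array, the acute phase median of pair 2 was −0.05.

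Genes of ethanol and xenobiotic metabolism had 13 of 33 promoters higher and 4 lower in all 3 pairs, and their medians were 0.08, 0.06 and 0.08 in the pairs, the last below the 0.19 over all promoters. With arrays centred on the promoter windows these medians were 0.12, 0.13 and −0.099, so that of pair 3 turned. With the mean of the tiled region, 9 promoters were higher and 4 lower (27.3% and 12.1%), beside 25.8% and 13.6% over all promoters. In the main setting, Ahr was the only called member. Ugt2b1, an enzyme that adds glucuronic acid to hormones and drugs, differed by 0.30, 0.23 and 0.62. Lower in ethanol were Ephx1, the microsomal epoxide hydrolase, by −0.02, −0.69 and −0.54, and Gstp1, a glutathione transferase, by −0.36, −0.59 and −0.12. A second promoter region of Ephx1, with mean signals of 0.48 in carbohydrate and 0.56 in ethanol, differed by 0.0887, −0.0248 and 0.1654. Cyp2e1, the cytochrome P450 that oxidises ethanol, differed by 0.41, 0.26 and 0.26, with means of 0.22 ± 0.15 (SD, n = 3) in carbohydrate and 0.53 ± 0.07 in ethanol (limma adjusted p = 0.682).

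In the list of oxidative and metal stress genes, 11 of 30 promoters were higher and none was lower in all 3 pairs, and none passed (smallest limma adjusted p 0.39). Ddit3, a stress transcription factor also called CHOP, differed by 0.35, 0.39 and 0.76. Gclm, a subunit of the enzyme that makes glutathione, differed by 0.51, 0.20 and 0.42, and Sod1, a superoxide dismutase, by 0.04, 0.40 and 0.80. Of lipid genes, 11 of 37 were higher and 3 lower. Stard10, a lipid transfer protein, differed by 0.46, 0.52 and 0.65, and Acacb, which makes malonyl-CoA at mitochondria, by −0.31, −0.30 and −0.33. Of amino acid, methionine and glucose genes, 8 of 30 were higher and 1 lower. Mat2a, which makes S-adenosylmethionine, differed by 0.34, 0.46 and 0.36, and the lower one was Gys2, the liver glycogen synthase, by −0.07, −0.67 and −0.31. Of these lists no promoter passed the test. With the mean of the tiled region, 14 promoters of the stress list, 15 of the lipid list and 9 of the amino acid list were higher, and 1 of each lower. These stand beside 25.8% and 13.6% over all promoters, and the 9 made up 30% of the amino acid list.

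Cell cycle and growth genes had 5 of 35 promoters higher and none lower, near the share over all promoters for the first. Cytokine and JAK-STAT genes had 2 of 27 higher and 3 lower. With the mean of the tiled region, these counts were 12 and 2 (34.3% and 5.7%), and 8 and 2 (29.6% and 7.4%). Over all promoters the shares were then 25.8% and 13.6%. Il6st, the signalling receptor chain of interleukin-6, was among the higher ones, by 0.21, 0.54 and 0.29. Il10, an anti-inflammatory cytokine, was lower by −0.37, −0.27 and −0.53. None passed the test.

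A pair of lists served for comparison. Ribosome and translation genes, expressed in every cell, had 14 of 38 promoters higher and 2 lower in all 3 pairs, with a median of 0.15. This share of 36.8% was close to the 36.7% of the stress list. Testis and neuronal genes, mostly silent in liver, had 1 of 38 higher and 4 lower, with a median of 0.00068. With the mean of the tiled region, the counts of the 2 lists were 15 and 1, and 0 and 7, beside 25.8% and 13.6% over all promoters.

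Markers of liver cell types were looked at in the same way, as bulk tissue holds several cell types, and fewer cells of a type cannot be told apart from less binding per cell. Hepatocyte markers had 5 of 14 promoters higher and none lower. Kupffer cell and macrophage markers had none of 10 higher and 4 lower, with a median difference of −0.0099 and medians of −0.03, −0.19 and 0.05 in the pairs. C1qb, a complement subunit made by macrophages, was the lowest, at −0.23, −0.15 and −0.51, and the mean difference was above 0 at 4 of the 10, with the highest at the region of Cd68, at 0.15. Sinusoidal endothelium markers had none of 7 higher and 3 lower, with Tie1, an endothelial receptor, at −0.41, −0.38 and −0.25. Stellate cell markers had 2 of 14 higher and 3 lower, cholangiocyte markers 1 of 7 higher and none lower, and lymphocyte and neutrophil markers 4 of 20 higher and 4 lower. With the mean of the tiled region, hepatocyte markers had 3 higher (21.4%) and 0 lower, and lymphocyte and neutrophil markers 0 and 8 (40%). Over all promoters the shares were then 25.8% higher and 13.6% lower, so the higher share of hepatocyte markers was not above it in this setting. The counts were then 0 and 3 for Kupffer cells, 0 and 4 for endothelium, 2 and 2 for stellate cells and 2 and 1 for cholangiocytes. The median signal of the hepatocyte list lay between 0.27 and 0.48 on the carbohydrate arrays and between 0.51 and 0.59 on the ethanol arrays, but the median difference within pairs was 0.18, −0.05 and 0.26. For the macrophage list these ranges were 0.19 to 0.34 and 0.12 to 0.27. None of these promoters passed the test, and the part of cell type makeup in the diet differences was not tested.

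**Figure D4:**
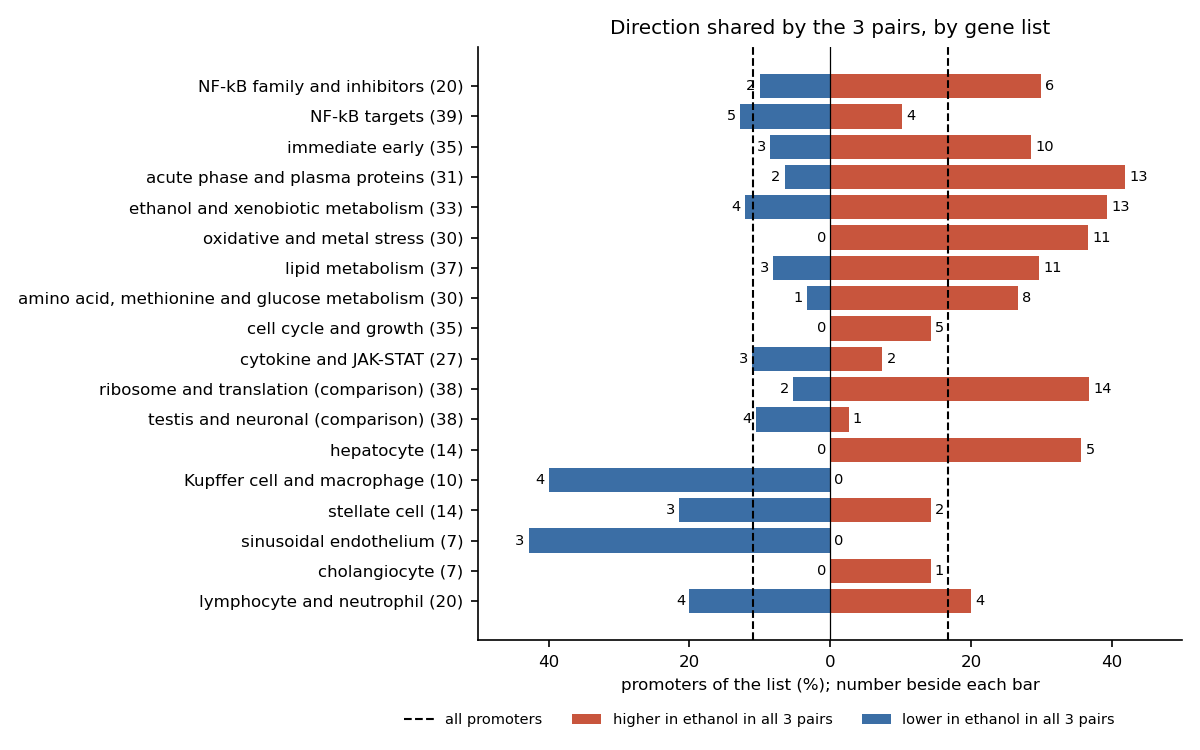
Share of each list's promoters (%) that were higher (red, to the right) or lower (blue, to the left) in ethanol in all 3 pairs, with the number of promoters beside each bar and the list size in brackets; dashed lines mark the shares over all promoters, 16.7% and 11.0%. Past the right line reach the NF-kB family, immediate early, acute phase, xenobiotic, stress, lipid, amino acid, ribosome, hepatocyte and lymphocyte lists. The other lists, among them NF-kB targets and testis and neuronal genes, do not. Past the left line reach the NF-kB target, xenobiotic, cytokine, Kupffer cell, stellate cell, endothelium and lymphocyte lists.

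Genes with a peak on all 3 ethanol arrays and no carbohydrate array included none of the called promoters. Of 262 promoters of these 272 genes, 112 had a higher signal in all 3 pairs and 2 a lower one, 11 differed by over 0.3 in every pair, and none was called. Their median difference was 0.23. The signal and the peaks come from the same arrays, so these values describe the peak lists and are no separate support for them. Among the largest differences were those of Pigr, which carries antibodies into bile, by 0.39, 0.62 and 0.95 (limma adjusted p = 0.0694), the promoter of C9h2orf49 and Tgfbrap1, by 0.44, 0.65 and 0.76, and Vps36, a protein that sorts membrane cargo, by 0.14, 0.74 and 0.91. Nampt, the enzyme that recycles nicotinamide, differed by 0.66, 0.49 and 0.52, and Ugt2a3, a glucuronic acid transferase, by 0.48, 0.36 and 0.90. Of 57 promoters of the 56 genes with peaks in carbohydrate alone, 25 were lower in all 3 pairs and 1 was higher. Besides Dlgap4, Tnfrsf14, Btnl7 and Krtap5-8 these included Msln, mesothelin, by −0.54, −0.30 and −0.33, and Inpp5d, a phosphatase of blood cells also called SHIP1, by −0.19, −0.70 and −0.35.

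The place of the signal relative to the start of the gene differed between arrays in a way that crossed the diets. In the 250 bp before the start, the mean probe value was −0.0389, −0.1079 and −0.0034 on carbohydrate arrays 1, 2 and 3, and −0.02, 0.05 and −0.12 on ethanol arrays 1, 2 and 3. The paired difference there was 0.02, 0.16 and −0.12, so pairs 2 and 3 went in opposite directions at the start. Peaks within 500 bp of the start made up 21.9%, 20.0% and 22.1% of the carbohydrate lists and 16.5%, 25.6% and 12.5% of the ethanol lists. The windows of promoters higher by over 0.3 in all 3 pairs were centred at a median of −504 bp from the start, those lower by over 0.3 at 131 bp, and those of all named promoters at −868 bp. When the mean profile was subtracted from each array, an alternative chosen after seeing the data, no promoter was called, with 906 at an unadjusted p under 0.05. The differences of the 10 named called promoters then lay between 0.52 and 0.64 for the 9 higher ones and at −0.72 for Semg1, with limma adjusted p from 0.0773 to 0.208. The part of these profiles in the diet differences was otherwise not tested.

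**Figure D5:**
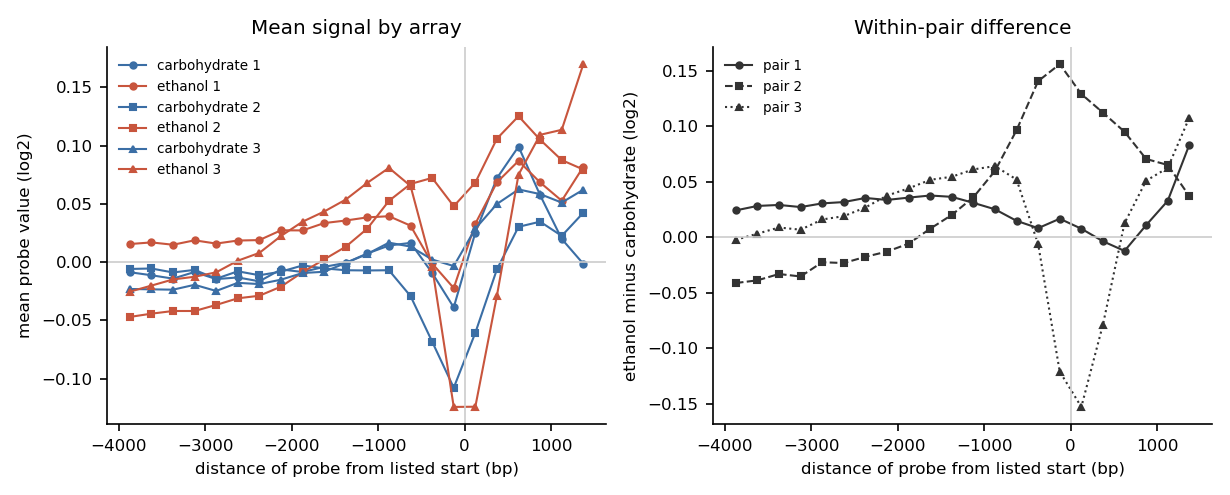
Left: mean probe value (log2) in 250 bp bins by distance from the listed start on the 6 arrays, with carbohydrate in blue and ethanol in red. Right: the difference, ethanol minus carbohydrate, in each pair, which at the start is 0.16 in pair 2 and −0.12 in pair 3.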

How the data were processed

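NF-kB p65 ChIP-chip values of 20 rat liver arrays were used, 6 of them for the main comparison. The authors' deposited value table gave log2 ratios per probe. The authors' deposited peak lists held, per the file headers, a score for each peak and its false discovery rate, which is handled as a p-value. The software behind both, and the build, are not given in the sources used here.

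Ratios were multiplied by −1 and centred on each array's median, with no loess or quantile step. Regions ended at gaps over 1000 bp, and the best window of 500 bp held at least 4 probes. Accessions matched RefSeq names (GRCr8, used for names and printed sequences) for 13670 of 14678. limma 3.58.1 in R 4.3.3 (lmFit, eBayes with trend, two-sided) fitted the 6 arrays with the pair as a block. Its prior degrees of freedom were infinite. The pairing rests on shared slides, and deviations of same-numbered arrays correlated at 0.50, 0.19 and 0.28. Carbohydrate 3 with ethanol 2 reached 0.29, so for numbers 2 and 3 the values do not favour equal numbers, and the slides alone set those pairs. Differences between times used all 20 arrays in 6 groups. The fits were tested on simulated data. Other steps used matplotlib 3.10.9, pandas 2.3.3, scipy 1.17.1 and numpy 2.4.6 in Python 3.11.15.

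Named genes were the 10 strongest changes in each direction, filled up by smallest p, up to 4 members of each list, and genes by peak pattern or signal. The arrays, lists and rules were chosen with earlier results of these data known. Alternatives covered the block, slides, windows, sign, scaling, filters, peak thresholds and each pair left out. Some promoters that these rules would name are not reported here.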

Additional observations from a re-analysis of the deposited data

How the results depend on the processing

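The calls depended on the processing, and the differences of the named promoters kept their sign more often than their call. The numbers of promoters called higher and lower, 10 and 1 (11 in all) in the main setting, were 0 and 0 without the replicate block on the 6 arrays and also on all 20 arrays (1189 at an unadjusted p under 0.05 in limma), so the calls rest on the pairing. With the slide as a fixed term on 20 arrays they were 66 and 19 (85), and with the slide as a random block 5 and 1 (6). Averaging each tiled region gave 127 and 80 (207), none of these among the 11, 71 and 1 (72) with arrays scaled to the same spread, and 68 and 16 (84) with arrays centred on the promoter windows. They were 10 and 0 with 300 bp windows, 7 and 0 with the deposited sign, 10 and 5 with array weights, 6 and 0 with promoters that had a listed peak, 26 and 1 (27) with no trend in the variance, and 15 and 1 with quantile normalisation. With the mean profile removed, an alternative chosen after seeing the data, they were 0 and 0. Leaving out 1 pair gave 0 to 2 calls, all of them higher and 0 lower. The higher share of calls was 90.9% in the main setting, 61.4% with the tiled region and 77.6% with the slide as a fixed term.

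Promoters with 1 direction in all pairs numbered 2429 higher and 1595 lower. With the tiled region there were 3756 higher and with the deposited sign 887 higher. With 1 pair left out they ranged from 2767 to 5404 higher and from 2189 to 4785 lower, and without pair 3 more were lower than higher. Promoters over 0.3 in all pairs, 87 higher and 23 lower, were 3 and 0 with the tiled region, 48 and 3 with scaled arrays, 31 and 9 with quantile normalisation, 52 higher with the profile removed and 18 higher with the deposited sign. Over 0.3 and lower were 35 with windows centred and 36 with 300 bp windows. With 1 pair left out they ranged from 119 to 757 higher and from 74 to 254 lower. Fewer pairs make these conditions easier to meet. Genes with peaks in ethanol alone, 272, were 155 at a false discovery rate of at most 0.05, and 604 to 1472 with 1 pair left out. In carbohydrate alone, 56 genes became 22, and 197 to 331. By position, peaks of the pair 1 array were counted that overlapped peaks on both other arrays of the diet and none of the other diet. These peaks, which are not gene counts, numbered 151 in ethanol and 99 in carbohydrate with an overlap of 1 bp. With an overlap of 50% of the shorter peak they numbered 126 and 102. The excess of ethanol peaks, a mean of 2482 a pair, ranged from 2056 to 3206 with 1 pair left out. The difference between 1 h and 6 h was called at 22 promoters with the slide term, and that between 1 h and 0 h at 2 with scaled arrays.

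The deposited sign turned 47 of 70 named differences, which its construction explains in part, as it turns each value and chooses another window. Differences that were above 0 were then −0.21 at S100vp, −0.11 at Wdfy2, −0.065 at Otud6b, −0.14 at Rgs18, −0.11 at Fam234b, −0.16 at Ahr, −0.035 at Smim13, −0.26 at Slc1a1, −0.15 at the unnamed region on chromosome X, −0.16 at Pigr, −0.077 at Nfkbia, −0.17 at C9h2orf49 and Tgfbrap1, −0.065 at Vps36, −0.33 at Ugt2a3, −0.086 at Nampt, −0.039 at Btg1, −0.015 at Hes1 and −0.33 at Cp. Others were −0.16 at Itih1 and Nek4, −0.024 at Ugt2b1, −0.036 at Plg, −0.0301 at Atf4, −0.0801 at Gclm, −0.079 at Ripk1, −0.53 at Fgb and Plrg1, −0.22 at Mat2a, −0.046 at Sod1, −0.071 at Dusp6, −0.14 at Il6st, −0.37 at Nfkbiz, −0.12 at Cxcl1, −0.18 at Cyp2e1, −0.068 at Il1rn, −0.20 at Ikbkb, −0.077 at Irak1, −0.14 at Egr1, −0.42 at Saa4, −0.002 at Errfi1 and −0.033 at Mt1 and Mt2A. Differences that were below 0 were then 0.17 at Semg1, 0.26 at Dlgap4, 0.019 at Tnfrsf14, 0.15 at Or3a1f, 0.084 at Krtap5-8, 0.10 at Inpp5d, 0.15 at Msln and 0.33 at Lta and Tnf. Other reversals were few and mostly at small differences, and their cause was not tested. With 300 bp windows they were −0.14 at Fgb and Plrg1, 0.033 at Gys2, −0.042 at Il6st, 0.022 at Igfbp1 and −0.0028 at Mt1 and Mt2A. Igfbp1 was 0.011 with scaled arrays, 0.19 with the tiled region and 0.059 without pair 2. Mt1 and Mt2A were −0.0034 with array weights, −0.011 with windows centred, −0.0006 with the profile removed, −0.14 with quantile normalisation and −0.018 without pair 3. Smpdl3a was 0.065 and Rela 0.11 with the tiled region. Errfi1 was −0.016 with the profile removed and −0.13 with quantile normalisation, Egr1 −0.27 with quantile normalisation and from −0.11 to 0.21 with 1 pair left out, Saa4 from −0.12 to 0.23 and Rela from −0.29 to 0.11 with 1 pair left out. Precision is limited by the number of arrays, and the median standard error of the paired test was 0.16.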
